A study of Mus musculus with 7 samples.

Results

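Binding of retinoic acid receptor β (RARβ) to liver chromatin was compared between mice on a control diet and mice on a diet with retinoic acid (RA). The data were the peak lists of 2 chromatin immunoprecipitation sequencing (ChIP-seq) libraries, 14968 peaks on the control diet and 29467 under RA, which together made up 44435 of the 245004 peaks in the 6 lists of the series. Both groups were livers of male C57BL/6 mice aged 3 months, with no transgene or deletion in the labels, and the RA group received RA in its feed for 1 day according to the labels. The study's methods describe a longer RA treatment, so the duration is not settled here. How many animals went into a library is not stated in the sources used here. The other 4 lists came from RARα and retinoid X receptor α (RXRα) under the same diets and served as other readouts at the same regions. A peak of the RA list that overlapped a control peak by at least 1 bp was called shared, and one that overlapped none was called gained. A control peak that overlapped no RA peak was called lost. These words describe the lists only: there was 1 library per diet, no replicate, and therefore no test of any difference between the diets.

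RARβ is a nuclear receptor that is activated by all-trans retinoic acid and binds DNA mainly as a heterodimer with an RXR. The dimer recognises repeats of a hexamer called a half-site, and genes with such response elements include the ones that clear retinoic acid, such as Cyp26a1. The liver is the main store of vitamin A, and hepatocytes also use RXR with other partners, such as PPARα, LXR, FXR, PXR and CAR, to control lipid, bile acid and drug metabolism.

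The sequences at RARβ peaks could be read near annotated starts, where RefSeq promoters of build GRCm38.p6 were at hand. They covered 300 bases each, 250 of them upstream, in 21263 windows of 17492 genes. A shared peak overlapped 6630 windows (31.2%), a gained peak but no shared or lost one 1931 (9.08%), and a lost peak but no shared or gained one 485 (2.28%). Half-sites were searched on both strands in 4 forms, which were the form AGGTCA, the form AGTTCA, the form GGGTCA and the form GGTTCA, and direct repeats as 2 of these forms on the same strand with 0 to 5 bases between them (DR0 to DR5). A repeat of this strict kind was rare in every class. DR1 occurred in 0.518% of windows with a gained peak (10 windows), in 0.211% of windows with a shared peak (14 windows) and in 0.183% of all windows (39 windows). Its share was 0.619% in windows with a lost peak (3 windows) and 0.0982% in those with no RARβ peak (12 windows). DR5 occurred in 0.104% of windows with a gained peak (2 windows), in 0.0151% of those with a shared peak (1 window) and in 0.0800% of all windows (17 windows). Windows with no RARβ peak held a DR5 in 0.115% of cases (14 windows), and windows with a lost peak held none. DR2 occurred in 0.104% of windows with a gained peak (2 windows) and 0.0754% of those with a shared peak (5 windows). Its share was 0.0894% in all windows (19 windows) and 0.0982% in those with no RARβ peak (12 windows). A match of letters is a description of the window and not evidence of a site in use. Shown here are the 2 windows with a gained peak and a DR5, and the 3 highest-scoring with a DR1 in the upstream bases. DR5 and DR1 are among the arrangements known for RAR and RXR dimers, and windows with other repeats are not shown. Each stretch is written in the direction of the gene, with the repeated half-sites in capitals, and lies 19 to 176 bases upstream of the promoter table's start, counted from the first base of the repeat.

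Cyp26a1, DR5, chr19:37697770-37697799, plus strand: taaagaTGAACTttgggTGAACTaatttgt
Blvrb, DR5, chr7:27452393-27452417, plus strand: aaccttTGAACTggcttTGAACTca
Dph5, DR1, chr3:115887999-115888028, plus strand: cccattccTGACCCtTGACCTctgcccggg
Ak4, DR1, chr4:101419560-101419589, plus strand: ggtctgacTGACCTcTGACCCcagagggcc
Efl1, DR1, chr7:82648564-82648593, plus strand: atgcgcgcGGGTCAgAGGTCAcaggcccac

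Cyp26a1 encodes the cytochrome P450 that degrades retinoic acid, and its DR5 began 32 bases upstream of the table's start. The RefSeq span of the gene begins further upstream, at position 37697738 of chromosome 19. The gained RARβ peak over this DR5 scored 138.27. Blvrb, which encodes a biliverdin reductase, had a gained peak with a score of 166.55. The gained peaks at Dph5, Ak4 and Efl1 scored 147.13, 134.23 and 131.79. All 5 windows also overlapped an RXRα peak of the control diet. The score is the peak caller's own value, a multiple of the negative log10 of the peak's p-value, and is used here only to rank peaks within 1 list.

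Windows with RARβ peaks were richer in CpG than windows without them, and those with shared peaks the richest. The ratio of observed to expected CpG had a median of 0.824 in windows with a shared peak, 0.729 with a gained peak, 0.753 with a lost peak and 0.290 with no RARβ peak. A ratio of at least 0.6 was found in 85.0% of windows with a shared peak, 65.9% with a gained peak and 47.7% of all windows. At least 1 half-site was present in 43.8% of windows with no RARβ peak, in 42.8% of those with a gained peak and in 35.9% of those with a shared one. The GC-box letters GGGCGG were present in 70.3% of windows with a shared peak, 59.8% with a gained peak and 46.2% of all windows. The letters CCGGAAG, the core of an ETS site, were present in 23.7%, 17.9% and 11.6%. Whole upstream stretches are shown for the highest-scoring windows that lie outside every RefSeq gene span, 2 with a gained peak (Akr1b7 and Srd5a3), 2 with a shared peak (Khsrp and Osbp) and 1 with a lost peak (Hs6st1). Half-sites are in capitals.

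Akr1b7, gained, chr6:34412112-34412361, plus strand: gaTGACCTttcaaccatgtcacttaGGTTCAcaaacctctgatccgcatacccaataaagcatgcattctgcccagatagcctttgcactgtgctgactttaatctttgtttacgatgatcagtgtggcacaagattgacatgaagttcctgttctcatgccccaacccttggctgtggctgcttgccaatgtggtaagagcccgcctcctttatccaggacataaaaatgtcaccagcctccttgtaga
Srd5a3, gained, chr5:76140023-76140272, plus strand: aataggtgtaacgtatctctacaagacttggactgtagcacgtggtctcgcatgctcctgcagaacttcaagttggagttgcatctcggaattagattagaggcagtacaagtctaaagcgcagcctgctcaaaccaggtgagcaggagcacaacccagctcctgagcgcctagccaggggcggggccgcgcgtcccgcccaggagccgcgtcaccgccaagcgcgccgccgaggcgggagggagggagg
Khsrp, shared, chr17:57031508-57031757, minus strand: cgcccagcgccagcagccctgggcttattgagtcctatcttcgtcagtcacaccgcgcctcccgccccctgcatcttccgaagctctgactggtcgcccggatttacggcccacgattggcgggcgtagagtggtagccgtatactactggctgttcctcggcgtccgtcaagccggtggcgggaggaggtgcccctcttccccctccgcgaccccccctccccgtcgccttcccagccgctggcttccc
Osbp, shared, chr19:11965594-11965843, plus strand: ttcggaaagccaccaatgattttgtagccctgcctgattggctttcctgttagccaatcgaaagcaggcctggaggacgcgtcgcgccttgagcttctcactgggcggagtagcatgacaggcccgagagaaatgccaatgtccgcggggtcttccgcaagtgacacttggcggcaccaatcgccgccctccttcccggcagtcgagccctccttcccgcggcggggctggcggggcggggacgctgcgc
Hs6st1, lost, chr1:36068150-36068399, plus strand: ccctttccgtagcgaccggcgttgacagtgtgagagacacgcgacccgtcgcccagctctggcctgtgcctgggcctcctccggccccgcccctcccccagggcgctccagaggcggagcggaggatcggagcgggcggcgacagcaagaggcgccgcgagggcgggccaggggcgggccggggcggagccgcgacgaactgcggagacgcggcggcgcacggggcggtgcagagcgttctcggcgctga

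Akr1b7, an aldo-keto reductase gene, had a CpG ratio of 0.188 and a gained peak with a score of 322.26. Srd5a3, which encodes a steroid reductase family member that acts in protein glycosylation, had a ratio of 0.874 and a score of 318.37. The shared peaks at Khsrp, an RNA-binding protein gene, and Osbp, an oxysterol-binding protein gene, scored 2065.3 and 1756.83 in the RA list, and neither stretch held a half-site of the 4 forms. The lost peak at Hs6st1, a heparan sulfate sulfotransferase gene, scored 224.04 in the control list, and its stretch also held none.

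Under RA the RARβ list was longer, and most of what it added lay away from gene starts. Of the 29467 RA peaks, 17999 (61.1%, Wilson 95% interval 60.5 to 61.6%) were gained, whereas 3330 of 14968 control peaks (22.2%, 21.6 to 22.9%) were lost. With the RA list shortened to its 14968 highest scores, 43.0% of its peaks were gained and 41.7% of control peaks were lost. Lists of equal length that overlap almost 1 to 1 must give nearly equal shares. The closeness of these 2 shares therefore says nothing about the diets. The intervals cover counting error only and not the spread between animals. The number of reads in each RARβ library is not given in the sources used here, so the diet, the sequencing depth and the yield of the immunoprecipitation cannot be told apart. In whole liver, binding in fewer cells and weaker binding in every cell cannot be told apart either. Gained peaks had a median width of 609 bp and covered 12.1 Mb, and lost peaks had a median width of 381 bp and covered 1.42 Mb. Peaks rarely split or merged between the lists: 58 control peaks overlapped 2 or more RA peaks, and 226 RA peaks overlapped 2 or more control peaks. The rise was spread over the genome. The ratio of RA to control peaks ran from 1.80 on chromosome 17 to 2.13 on chromosomes 6 and 12, and was 1.95 on chromosome X, where 36.4% of control peaks were lost.

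Distances were read from the midpoint of each peak to the nearest start of a protein-coding gene. Shared peaks of the RA list lay within 1 kb of a start in 50.1% of cases (49.1 to 51.0%), gained peaks in 11.9% (11.4 to 12.4%) and lost peaks in 17.1% (15.9 to 18.4%). With only scores of at least 100 kept in each list, the share within 1 kb was 24.3% for gained peaks. Beyond 50 kb these shares were 15.6%, 31.7% and 30.3%. The median distance to a start was 0.980 kb for shared RA peaks, 23.4 kb for gained peaks and 20.1 kb for lost peaks. Gained and lost peaks thus resembled each other in position and both stood apart from the shared ones. A protein-coding gene span held the midpoint of 54.1% of gained, 52.9% of lost and 54.2% of shared RA peaks, so the classes differed in their distance to the start but little in the share inside genes. From the midpoint of a gained peak, that of the nearest control peak was a median of 25.7 kb away. It lay within 1 kb for 1.99% of gained peaks, within 10 kb for 26.2% and within 100 kb for 82.4%. The share within 1 kb is kept low by definition, because a gained peak overlaps no control peak. For lost peaks, set against the longer RA list, the median was 14.5 kb and the share within 1 kb 5.77%.

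**Figure D1:**
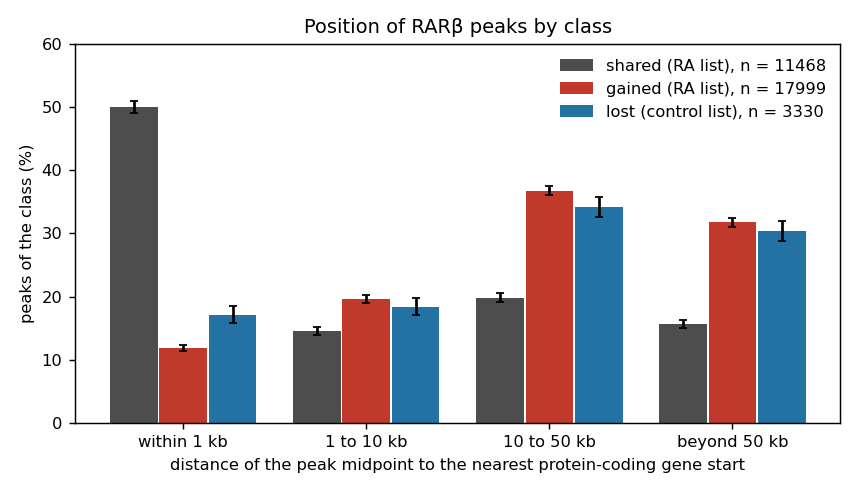
Bars give the percent of RARβ peaks in each class by distance of the midpoint to the nearest protein-coding start, for 11468 shared peaks of the RA list, 17999 gained peaks and 3330 lost peaks; error bars are Wilson 95% intervals and cover counting error only. Shared peaks stand at 50.1% within 1 kb, where gained peaks reach 11.9% and lost peaks 17.1%.

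Gained and lost peaks differed in rank and in the other receptors listed at the same place. The median gained peak stood at percentile 36.9 of the RA list, and the median lost peak at percentile 24.7 of the control list. In the lowest score decile of the RA list 87.0% of peaks were gained, and in the highest 18.02%. In the control list the lost share fell from 50.5% in the lowest decile to 0.935% in the highest. At scores of 100 or more, 191 of 4786 control peaks were lost (3.99%) and 6228 of 14631 RA peaks were gained (42.6%). In the full lists, lost peaks were thus mostly weak ones, while gained peaks reached into the upper part of the RA list. Control peaks were set here against the longer list, and RA peaks against the shorter one. With lists of equal length, 41.7% of control peaks were lost and 43.0% of RA peaks gained, shares that equal length forces close together.

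RXRα was already listed at most gained RARβ regions under the control diet. An RXRα control peak overlapped 86.4% of gained peaks (85.9 to 86.9%) and 90.3% of shared RA peaks, but 47.7% of lost peaks (46.0 to 49.4%). For gained peaks this share rose with the score, from 70.8% in the lowest decile to 99.4% in the highest. For lost peaks it lay between 39.0% and 61.1% in the 10 deciles of the control list, with 14 to 753 lost peaks a decile. Beyond 10 kb from a start, RXRα control peaks overlapped 88.2% of gained, 95.6% of shared RA and 45.0% of lost peaks. RARα was listed at fewer of the gained regions, 46.4% under the control diet and 61.0% under RA, against 86.7% and 91.7% of the shared RA peaks. The RARα lists held 35521 control and 44296 RA peaks, and the RXRα control list 61128. Comparisons between these lists therefore also depend on list length. In the highest score decile of the RA list, 86.8% of gained peaks overlapped a RARα peak of the RA diet.

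The combinations of the other 4 lists at each class were counted as well. All 4 lists had a peak at 5960 gained regions (33.1%) and at 8412 shared RA regions (73.4%). RXRα under both diets without any RARα peak was seen at 4512 gained regions (25.1%) and at 456 shared ones (3.98%). At 3481 gained regions (19.3%) and 885 shared ones (7.72%), RXRα was listed under both diets and RARα under RA only. None of the 4 lists had a peak at 615 gained regions (3.42%), whereas none had one at 1051 lost regions (31.6%). A peak in only 1 of 6 lists was thus a common form of lost peak and a rare form of gained peak. The 615 gained peaks found in no other list had a median score of 57.67, close to the lowest score of 50 in the lists.

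**Figure D2:**
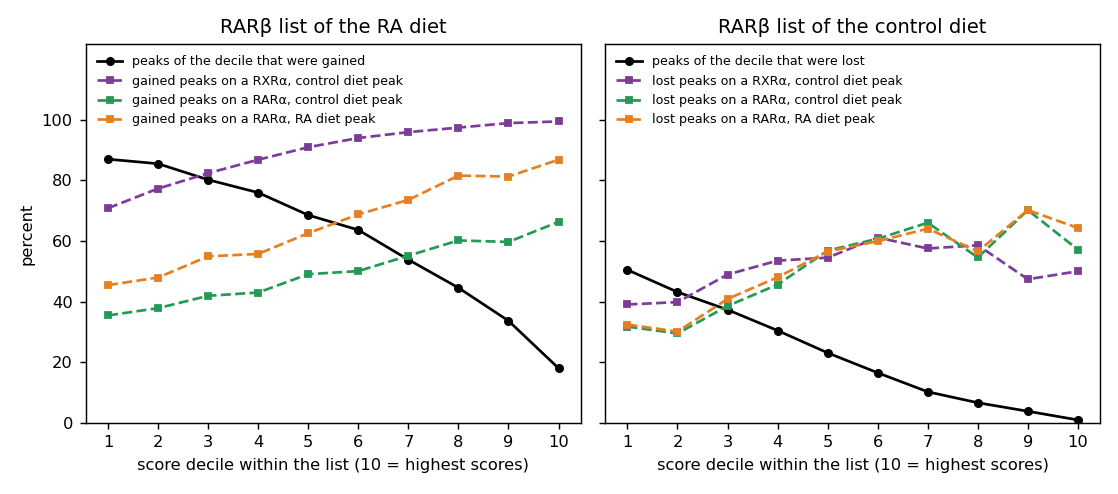
The left panel covers the RA list and the right panel the control list, each by score decile within the list; black lines give the percent of peaks that were gained or lost, and dashed lines the percent of those gained or lost peaks that overlapped a peak of another list. The gained share falls from 87.0% to 18.02% while the overlap of gained peaks with RXRα of the control diet climbs from 70.8% to 99.4%; for lost peaks it stays between 39.0% and 61.1%.

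The same relation was read from the RXRα side, which does not use the rank of RARβ peaks but does depend on the length of the RARβ lists. Those lists were taken in full here, with 14968 control and 29467 RA peaks. Of the 61128 RXRα peaks of the control diet, 19.7% held a RARβ peak under the control diet and 43.3% under RA, with intervals of less than 1 percentage point. Near starts, within 1 kb, the share went from 62.6% to 80.4%, and beyond 10 kb from 11.99% to 36.8%. In percentage points, the difference between the diets was wider at stronger RXRα peaks. In the lowest RXRα score decile RARβ went from 8.70% to 17.2%, in the ninth from 26.7% to 72.6% and in the highest from 40.4% to 88.9%. As a ratio of RA to control the rise was less ordered, at 1.98, 2.72 and 2.20 in these deciles and 1.84 in the fourth. The order of the deciles was the same in both diets, with a higher RARβ share at each higher RXRα decile. Under RA only, 16024 RXRα regions held RARβ, and under the control diet only, 1565. For comparison, RARβ at the 35521 RARα peaks of the control diet went from 31.8% to 51.4%.

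**Figure D3:**
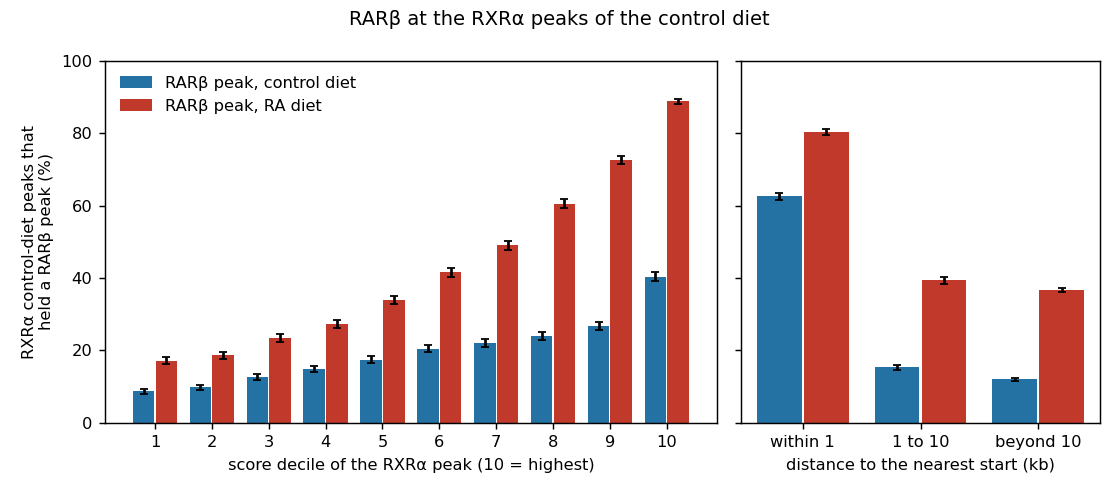
Bars give the percent of the 61128 control-diet RXRα peaks that overlapped a RARβ peak of the control diet (blue) or of the RA diet (red), by score decile of the RXRα peak on the left and by distance to the nearest start on the right, with Wilson 95% intervals that cover counting error only. The highest decile stands at 40.4% and 88.9%, and the regions beyond 10 kb of a start at 11.99% and 36.8%.

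Shared peaks differed in width and rank between the lists, and width differed over the lists as a whole. The median width of all peaks was 503 bp in the control list and 675 bp in the RA list. Among the 11638 control peaks with a partner, the RA partner was wider in 89.5%, with a median width ratio of 1.496 over all pairs, and enclosed the whole control peak in 65.9%. The midpoints lay a median of 81 bp apart. Ranks within the lists were related in part, with a Spearman correlation of 0.460 across pairs, 0.548 within 1 kb of a start and 0.330 beyond 10 kb; these pairs are regions of 1 library each and are not independent replicates.

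Genes of xenobiotic, bile acid and amino acid metabolism and of plasma proteins were often listed with RARβ under RA alone, while genes used by every cell mostly had RARβ under both diets. A gene was counted as bound when the midpoint of a peak lay within 10 kb of its start, which held for 9490 of 21536 protein-coding genes (44.1%) under the control diet and 11779 (54.7%) under RA. Of these genes, 2830 (13.1%) were bound under RA only and 541 (2.51%) under the control diet only. When the RA list was shortened to the 14968 highest scores, the length of the control list, this turned: 1254 genes were bound under RA only and 1980 under the control diet only. The direction of the gene count therefore depends on the length of the lists, and the counts at equal length are given for each list described next. An RXRα control peak lay within 10 kb of 95.6% of genes bound under both diets and 88.7% of those bound under RA only. The share was 70.8% for genes bound under the control diet only and 19.1% for genes with no RARβ peak. For all protein-coding genes it was 61.3%. A gained peak lay within 10 kb of 5529 genes, 2701 of which (48.9%) already had a control peak. In the lists that follow, the peaks of a gene are those within 10 kb of its start unless the whole gene is named. A percentile places a peak within its own list, and since the 2 lists differ in length, a pair of percentiles is not a measured change.

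Genes of xenobiotic metabolism had the highest share bound under RA only of the 23 lists counted, 17 of 30 (56.7%, against 13.1% of all genes). All genes are a loose comparison. An RXRα control peak lay within 10 kb of 61.3% of them, against 100% of the genes of xenobiotic metabolism. In this list 13 genes were bound on the control diet and 29 under RA, and at equal list length 13 and 17. Fmo5, a flavin monooxygenase gene, had no control peak within 10 kb and 3 RA peaks, the highest with a score of 391.63 (percentile 97.7). Ephx1, which encodes microsomal epoxide hydrolase, also had 0 control and 3 RA peaks, with a highest score of 271.52. Aox1, an aldehyde oxidase gene, and Ugt2b1, a glucuronosyltransferase gene, had 2 and 1 RA peaks and no control peak. Near their starts the 4 were thus listed under RA alone, although Fmo5, Ephx1 and Aox1 each had 1 control peak over the whole gene. Cyp2c29, a cytochrome P450 gene, went the other way, with 1 control peak (score 62.02, percentile 30.6) and no RA peak. Cyp2d9, another cytochrome P450 gene, was bound under both diets, with 1 control peak at percentile 35.4 and 3 RA peaks up to percentile 94.0.

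Amino acid and urea metabolism was the list in which RARβ reached every gene: 23 of 36 genes were bound on the control diet and 36 under RA, 13 of them (36.1%) under RA only. Within 1 kb of the start the count went from 13 to 33 genes. At equal list length it was 23 and 29 within 10 kb. Uroc1, the urocanate hydratase of histidine breakdown, had 2 RA peaks with a highest score of 243.33 at -98 bp from the start and no control peak. Cbs, which encodes cystathionine β-synthase, had 2 RA peaks (highest score 225.72), and Mat1a, the hepatic methionine adenosyltransferase gene, had 4 (198.45), both with no control peak. Bhmt, of betaine and homocysteine metabolism, had 1 RA peak (185.54). Mat1a, Cbs and Bhmt, all of methionine metabolism, were therefore listed under RA alone. Gnmt, a further gene of that pathway, had 2 control peaks up to percentile 91.6 and 3 RA peaks up to percentile 99.1. Cps1, the first enzyme of the urea cycle, had 1 control peak at percentile 52.6 and 2 RA peaks up to percentile 95.1.

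Bile acid genes showed the same direction, with 12 of 23 bound under the control diet, 21 under RA and 9 (39.1%) under RA only. At equal length the counts were 12 and 15. Klb, the co-receptor for FGF15 and FGF21, had 3 RA peaks and no control peak, the highest with a score of 219.43. Abcb11, the bile salt export pump, had 1 RA peak at -294 bp from the start (175.85). Baat, which conjugates bile acids, and Abcc2, a canalicular transporter, had RA peaks with highest scores of 119.28 and 116.93. None of these 4 had a control peak within 10 kb, but Klb had 1 and Abcc2 had 2 over the whole gene. Slc10a1, the bile acid uptake transporter, had 2 control and 3 RA peaks, and its highest peak stood at percentile 70.5 and 92.2. Nr0b2, which encodes the repressor SHP, had 2 control and 3 RA peaks at percentiles 90.8 and 91.6. Cyp7a1, the rate-limiting enzyme of bile acid synthesis, had a peak at its start under both diets, at percentile 17.3 of the control list and 60.1 of the RA list, and 1 further, gained peak. Cyp7b1, of the alternative pathway, had 1 control peak that was lost and 1 RA peak that was gained.

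Secreted plasma protein genes were bound in 28 of 46 cases on the control diet and 43 under RA, with 15 (32.6%) under RA only and counts of 28 and 33 at equal length. Fetub, a fetuin gene, had 2 RA peaks up to a score of 263.05 and no control peak. C4b, a complement gene, Hp, the haptoglobin gene, and Trf, the transferrin gene, had 2, 3 and 1 RA peaks and no control peak. Alb, the albumin gene, had no RARβ peak within 10 kb in either list. Serpinf2, the gene of α2-antiplasmin, had 2 peaks in each list, and its highest peak stood at percentile 67.2 and 98.8.

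Genes of fatty acid oxidation and of fatty acid and triglyceride synthesis were each bound in 66.7% of cases under the control diet. This was a little above amino acid and urea metabolism (63.9%) and plasma proteins (60.9%), and below glucose metabolism (72%). Fatty acid oxidation and PPARα targets went from 20 to 29 of 30 genes, with 9 (30%) under RA only and counts of 20 and 22 at equal length. Acadl, an acyl-CoA dehydrogenase gene, had 1 RA peak with a score of 193.8 and no control peak within 10 kb. The cytochrome P450 genes Cyp4a31 and Cyp4a14 had 2 and 1 RA peaks and no control peak within 10 kb. Acadl and Cyp4a31 each had 1 control peak over the whole gene. Pdk4, a pyruvate dehydrogenase kinase gene, had 2 control peaks and 1 RA peak, and its highest peak stood at percentile 57.0 and 96.4. Fatty acid and triglyceride synthesis went from 16 to 23 of 24 genes, but at equal length it was 16 in both lists. Acaca, the acetyl-CoA carboxylase gene, had an RA peak with a score of 104.4 near its start and no control peak within 10 kb, though 4 control peaks lay inside or near the gene as a whole.

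Most cholesterol, lipoprotein and phospholipid genes were already bound under the control diet, so few could be bound under RA only. Gained peaks were not rare near them. One lay within 10 kb of 40.9% of cholesterol genes, 68.2% of apolipoprotein and lipoprotein genes and 43.5% of phospholipid and lipid droplet genes. The share of all genes was 25.7%. Cholesterol synthesis and uptake went from 18 to 21 of 22 genes and phospholipid and lipid droplet genes from 18 to 22 of 23, and each from 18 to 20 at equal length. Apolipoproteins and lipoprotein handling went from 19 to 20 of 22, but from 19 to 10 at equal length, so the direction for this list turned with the list length. Apoe, an apolipoprotein gene, had RA peaks only, with a highest score of 188.71. Hmgcs1, of cholesterol synthesis, had 1 control peak at percentile 88.6 and 2 RA peaks up to percentile 98.2. Cyp51, of the same pathway, had 1 peak in each list, at percentile 92.1 of the control list and 63.6 of the RA list. Elovl1, a fatty acid elongase gene, and Abhd5, a co-activator of lipolysis, also had 1 peak in each list, at percentiles 79.1 and 54.8 for Elovl1 and 73.6 and 29.6 for Abhd5. Abca1, the cholesterol efflux pump, had 2 peaks near its start in each list, and 3 control and 9 RA peaks over the whole gene. Apoa4 went from 1 to 4 peaks, and its highest peak stood at percentile 12.5 and 36.5. Ptdss1, of phosphatidylserine synthesis, had 1 peak in each list at percentiles 61.9 and 83.6. Aldh3a2, a fatty aldehyde dehydrogenase gene, had 2 peaks in each list, 1 of them lost and 1 gained. Cbr1, a carbonyl reductase gene, had 4 control and 3 RA peaks.

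Glucose metabolism went from 18 to 24 of 25 genes, and was 18 in both lists at equal length. Slc2a2, the hepatic glucose transporter gene, had 3 RA peaks with a highest score of 195.09 and no control peak. Igfbp1, which encodes an IGF-binding protein, and G6pc, which encodes glucose-6-phosphatase, also had RA peaks only. Foxo1, a transcription factor of gluconeogenesis, had a peak at its start in both lists, at percentile 94.2 and 97.1.

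In the retinoid list, 9 of 26 genes were bound on the control diet and 11 under RA, and at equal length 9 and 7, so its direction also turned. These shares, 34.6% and 42.3%, were below the 44.1% and 54.7% of all genes. The share bound under RA only was 11.5%, near the 13.1% of all genes. Cyp26a1 stood out within it. Under the control diet it had 2 peaks, centred at -1848 and 4907 bp from the start, with scores of 100 and 102.09 (percentiles 68.0 and 69.2). Under RA these were 2 peaks with scores of 358.56 and 845.19 (percentiles 97.1 and 99.7), and the third was the gained peak over the DR5 shown above. Cyp26b1, a related gene, Rxra and Aldh1a1, a retinaldehyde dehydrogenase gene, were bound under RA only, with highest scores of 90.82, 71.75 and 54.23, and Aldh1a1 had 1 control and 8 RA peaks over the whole gene. Rxrb had 1 control and 4 RA peaks. Rarb itself had no peak within 10 kb of its outermost start in either list, and 1 control and 8 RA peaks over the whole gene. Rara and Rarg had none within 10 kb in either list, and 2 control and 5 RA peaks and 1 control and 2 RA peaks over the whole gene. Tgm2, a transglutaminase gene known to respond to retinoic acid, had 1 control and 4 RA peaks, and its highest peak stood at percentile 9.75 and 89.8.

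Transcription factor and nuclear receptor genes went from 21 to 29 of 37, and were 21 in both lists at equal length. Ncor1, the corepressor gene, had 1 RA peak with a score of 198.69 near its start and no control peak. Thrb, a thyroid hormone receptor gene, had 1 RA peak near the start, and went from 3 to 12 peaks over the whole gene. Nr1i2, which encodes PXR, had 3 RA peaks and no control peak within 10 kb, and 5 RA and 2 control peaks over the whole gene. Nr1i3, which encodes CAR, had 1 control and 4 RA peaks. Thra, the other thyroid hormone receptor gene, had 1 weak control peak (51.43, percentile 4.96) and no RA peak within 10 kb, and 2 peaks in each list over the whole gene. Circadian clock genes went from 16 to 17 of 19, and from 16 to 15 at equal length. Clock was bound under RA only (54.27), and Nr1d2, a REV-ERB gene, had 1 peak in each list at percentiles 96.7 and 98.02.

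Gene families used by every cell were bound at high shares under both diets. Genes whose symbols begin with Nduf, subunits and assembly factors of respiratory complex I, went from 44 to 45 of 49, ribosomal protein genes from 71 to 80 of 87, mitochondrial ribosomal protein genes from 71 to 77 of 78 and proteasome subunit genes from 35 to 37 of 40. Few of their members were unbound under the control diet, which limits how many could be bound under RA only (4.08%, 11.5%, 8.97% and 10%). A gained peak lay within 10 kb of 28.6%, 33.3%, 33.3% and 27.5% of these genes, against 25.7% of all genes. At equal list length the direction turned for complex I (44 to 42), mitochondrial ribosomal protein (71 to 63) and proteasome genes (35 to 30), and ribosomal protein genes went from 71 to 73. Ndufaf8 had 1 peak in each list, with scores of 675.68 and 994.52, and Rps19 had 1 in each, with 565.78 and 599.44. Olfactory receptor genes, which the liver is not known to use, had a peak within 10 kb in 20 (1.81%) and 41 (3.70%) of 1108 cases, and in 20 and 19 at equal length.

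Marker genes of liver cell types were counted as well, where a peak is binding and not expression. Of 5 hepatocyte markers, 1 was bound under the control diet (Apoa1) and 3 under RA (with Serpina1a and Ttr). Alb and Hnf4a had no RARβ peak within 10 kb of the outermost start. Over the whole gene, Hnf4a had 1 control and 2 RA peaks and Alb had none. Of 10 endothelial markers, 1 was bound under the control diet (Oit3) and 5 under RA, with Gpr182, Clec4g, Fcgr2b and Lyve1 under RA only. None of 11 Kupffer cell markers was bound in either list, 1 of 10 stellate cell markers was bound on the control diet and 0 under RA, and 1 of 7 cholangiocyte markers (Sox9) was bound under RA only. Under RA, 60% of the hepatocyte and 50% of the endothelial markers were bound, near the 54.7% of all protein-coding genes. On the control diet these shares were 20% and 10%, against 44.1% of all genes. Bound under RA only were 40% of each of these 2 lists and 14.3% of the cholangiocyte markers, against 13.1% of all genes. The marker lists are short. At equal list length the hepatocyte markers went from 1 to 0 and the endothelial markers from 1 to 3. The cell types that gave the RARβ peaks were not tested.

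**Figure D4:**
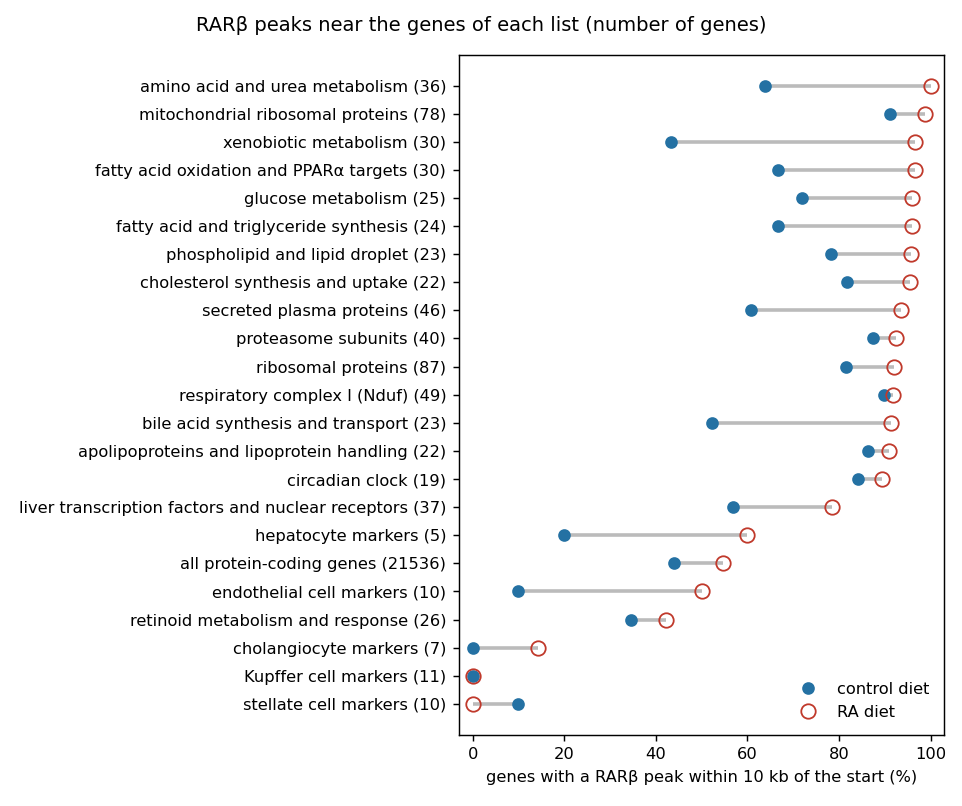
Each row is a gene list with its number of genes; filled blue points give the percent of genes with a RARβ peak within 10 kb of the start under the control diet and open red points the percent under RA, with 1 library each and no error bar. Xenobiotic metabolism runs from 43.3% to 96.7% and amino acid and urea metabolism from 63.9% to 100%, whereas all protein-coding genes run from 44.1% to 54.7% and complex I genes from 89.8% to 91.8%; with lists of equal length all protein-coding genes run from 44.1% to 40.7%. Olfactory receptors are left out.

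The genes and windows with the most gained peaks are listed next, as a ranking with no test of clustering. The 10 protein-coding genes with the most gained peaks within 10 kb of the start or inside the gene were Vps13d, Arhgap26, Gse1, Itpr1, Prkce, Rad51b, Zbtb20, Nfia, Rbpms and Zmiz1, with 15 to 23 gained peaks each. They are long, from 147 to 775 kb, and long genes have more room for peaks. Vps13d, a lipid transfer protein gene, went from 8 to 31 peaks over 324 kb. Its span also holds Dhrs3, a gene of the retinoid list, whose 3 control and 5 RA peaks are counted for both genes. Zbtb20, a transcription factor gene of the liver, went from 3 to 18, and Nfia, another transcription factor gene, from 7 to 22. Rbpms, an RNA-binding protein gene and the shortest of the 10, went from 0 to 15, or 10.2 gained peaks per 100 kb, the highest density among them.

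The Rbpms locus was mapped as an example. From 60 kb upstream to 160 kb downstream of its start, the control list held no RARβ peak and the RA list 18, with scores from 53.3 to 215.36 (median 80.02). The highest lay 25837 bp downstream of the start. RXRα had 33 peaks there on the control diet and 24 under RA, and RARα 14 and 17.

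Among windows of 200 kb, the most gained peaks (16) lay in chr1:88000001-88200000 and in chr8:33800001-34000000, the window of Rbpms, which went from 1 to 17 RARβ peaks. The first spans the Ugt1a cluster, whose genes encode the glucuronosyltransferases that clear bilirubin, drugs and also retinoids, and went from 3 to 18 RARβ peaks beside 24 and 27 RXRα peaks. Windows with 15 gained peaks each held Tgm2 with Rprd1b (5 to 18 RARβ peaks), Scarb1 (8 to 22), which encodes the HDL receptor, and Akr1d1 with Creb3l2 (5 to 17), where Akr1d1 encodes a reductase of bile acid synthesis.

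At Gc, the vitamin D-binding protein gene, the 2 lists had no overlapping peak. The control list held 3 peaks within 60 kb, with scores of 52.97, 55.5 and 67.32, all of them lost. The RA list held 7, all gained, with scores from 55.64 to 688.75. The highest, at chr5:89466890-89467473 and 9.283 kb upstream of the start, was the highest-scoring gained peak of all (percentile 99.5). Each of the 10 highest-scoring gained peaks overlapped RXRα under both diets and RARα under RA, and 8 of them RARα under the control diet as well. They scored from 505.5 to 688.75, and they lay 3.398 to 333 kb from the nearest start, near Gc, Eif1a, Ppp1r3b, Slc25a48, Dynlrb2, Mapk13, Dpyd, Hdac5, Exoc6b and Foxo1. Ppp1r3b encodes a glycogen-targeting phosphatase subunit and Dpyd the enzyme that starts pyrimidine breakdown.

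The 10 highest-scoring lost peaks were more mixed. They scored from 208.29 to 347.23, and 5 of them overlapped an RXRα control peak. The highest lay inside Plcb1, a phospholipase C gene, 381 kb from its start, and overlapped no peak of the other 4 lists. Those at Hs6st1 and Nrtn, a neurotrophic factor gene, lay 0.121 and 0.085 kb upstream of the starts. The others lay nearest to Mdm2, Cacnb4, Crtc3, Mid1, Bcorl1, Rnmt and Mnd1. The 5 shared peaks named by rank all had a score of 3100 in the RA list, a value that 7 RA and 6 control peaks shared. They lay 25.9 to 1198 kb from the nearest start and overlapped peaks in all 6 lists, so their order has no meaning.

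**Figure D5:**
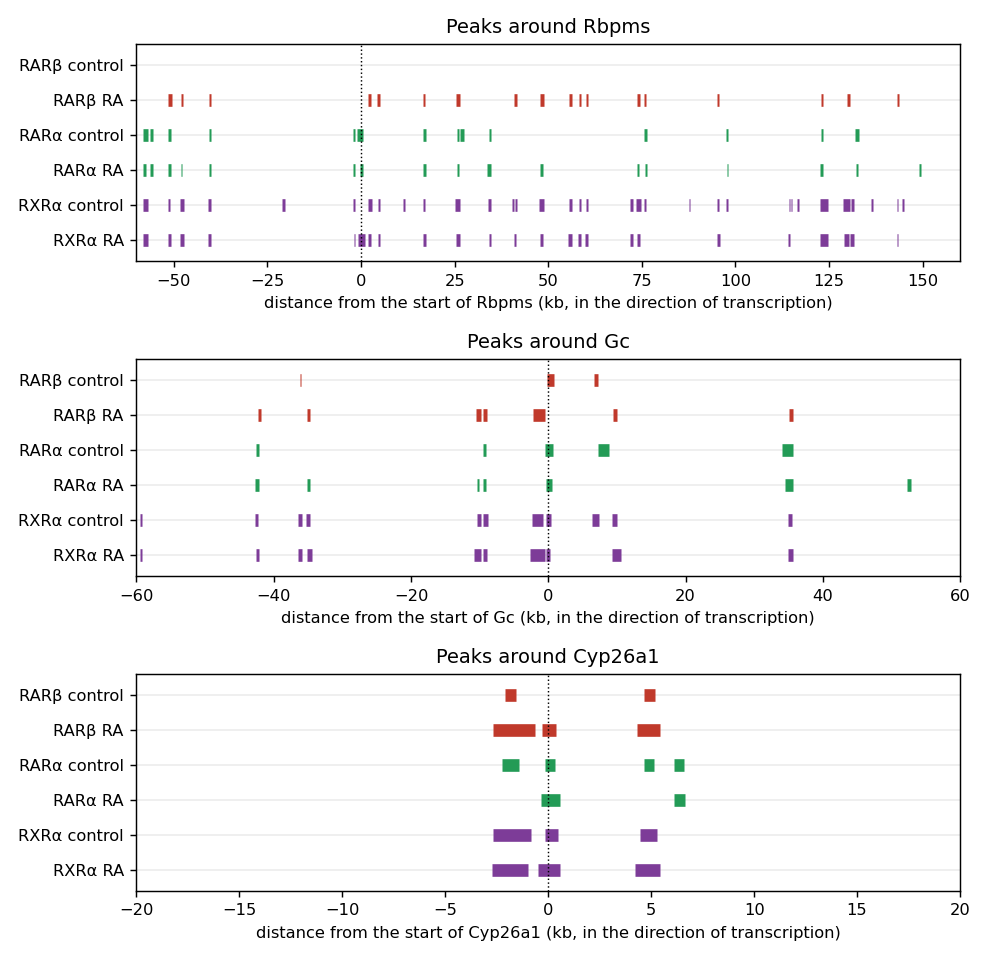
Each panel maps the peaks of the 6 lists as bars along the distance in kb from the start of Rbpms, Gc or Cyp26a1, in the direction of transcription, with a dotted line at the start. RARβ has 0 control and 18 RA peaks around Rbpms, 3 and 7 around Gc with no overlap, and 2 and 3 around Cyp26a1, while RXRα peaks of the control diet are present at each locus.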

How the data were processed

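Livers were used for ChIP-seq with single-end reads of 35 bp. Alignment to mm10 was done by the authors with Bowtie, and peaks were called with MACS, 1 list per library, and the submitters' processing notes also name CASAVA 1.4. The deposited files give each peak's start, end and score. The score of the peak caller was not normalized between libraries and read totals are not in the files, so depth is unknown and scores were ranked within a list only. The input library has no processed file here. No list held a score under 50.

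Overlaps of at least 1 bp were computed with numpy 2.4.6 and pandas 2.3.3, and checked with bedtools 2.31.1 and on simulated data. Wilson 95% intervals came from scipy 1.17.1 (Python 3.11.15). Gene spans came from the RefSeq table of GRCm38.p6, the same build as mm10. Strands were known for 21536 of 21887 protein-coding genes, 17492 from the RefSeq promoter table and 4044 by symbol from GENCODE M1, and genes without one were left out. The outermost start of a span was used. Exons, introns and the sequence of distal peaks were not analysed here.

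The regions and gene lists were chosen with earlier results of these data known. All 23 lists were counted. Lists defined by symbol took Nduf, Rpl or Rps with a digit (without the Rps6k kinases, left out after the values were seen; the match keeps relatives such as Rpl7l1), Mrpl or Mrps, Psma to Psmd and Olfr. The named genes were, per list, up to 4 bound under RA only, 2 under the control diet only and 2 under both, by score, although only some of these are described and some are not reported here. To these came the 10 genes and 5 windows with the most gained peaks, the 10 top gained, 10 top lost and 5 top shared peaks, and 13 genes known as targets or named by the study. Alb, Hnf4a, Rara, Rarg, Tgm2 and Cps1 were named in addition, after their values were seen. The RARβ, RARα and RXRα lists of a diet have no replicate, so no p-value was computed. Alternatives were lists of equal length, a minimum score of 100, overlaps of 25% and 50% of each width, and distances of 1, 5 and 50 kb.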

Additional observations from a re-analysis of the deposited data

How the results depend on the processing

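No paired analysis was possible because the results come from no test and each group has 1 sample. Leaving out a replicate was not possible for the same reason. With a score of at least 100 in each list, 4786 control and 14631 RA peaks remained, 86.1% of control peaks were shared and 71.9% of RA peaks gained, of which 24.3% lay within 1 kb of a start and 95.6% on an RXRα control peak. Within 10 kb of a start there were 8727 control and 13071 RA peaks. With an overlap of 25% of each width, 75.8% of control peaks were shared and 61.8% of RA peaks gained, and with 50% these were 58.0% and 70.5%, with 16.4% of gained peaks within 1 kb and 87.3% on RXRα. With lists of equal length, 58.3% of control peaks were shared and 43.0% of RA peaks gained, of which 13.2% lay within 1 kb and 96.3% on RXRα, and 1254 genes were bound under RA only against 1980 under the control diet only. Alternatives chosen after seeing the data were RA peaks of at least 100 against the full control list, with 42.6% gained, 13.2% within 1 kb and 96.4% on RXRα, and all starts of the promoter table, with 14.0% of gained peaks within 1 kb. Gene counts at distances of 1, 5 and 50 kb, at a score of at least 100 and with all starts stayed in the direction of RA, from 2129 to 4204 genes under RA only and from 402 to 568 under the control diet only. The unknown depth limits every comparison of list length.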
